A study of Mus musculus with 2 samples.

Results

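The genes described here encode drug-metabolizing enzymes of the mouse liver: the cytochrome P450 genes Cyp2b10, Cyp2a5 and Cyp2c55 and the carboxylesterase genes Ces2a, Ces2g, Ces1e and Ces3b. They are 7 of the 1750 genes named in the deposited table and account for 8 of its 5082 rows, since Cyp2c55 has 2 rows. The genes were selected on these same values, as genes known or proposed as targets of the nuclear receptor CAR that had a row in a table of genes that differed between the pools. Their shared direction is therefore a description, carries no test, and supports nothing by itself.

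The constitutive androstane receptor CAR, encoded by Nr1i3, and the pregnane X receptor PXR, encoded by Nr1i2, are hepatocyte receptors for drugs, bile acids and other foreign or toxic compounds. Each pairs with a retinoid X receptor and binds repeats of a short hexamer, and Cyp2b10 is the classical gene induced through CAR by phenobarbital. P450 enzymes are membrane-bound heme proteins that oxidize lipophilic compounds with electrons supplied by the reductase Por. Carboxylesterases are abundant in the endoplasmic reticulum of hepatocytes, where they cleave ester and amide bonds of drugs and of endogenous lipids.

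RNA was taken from the livers of wild-type C57BL/6J mice aged 6 to 10 weeks at the start, which all underwent jugular catheterization on day 1 and were infused with saline from day 2. From day 3 the PN group received parenteral nutrition, nutrients delivered into a vein, without food in the cage, while the saline group remained on saline and could eat. Livers were taken on day 11, after 8 days of either infusion. RNA of 3 mice was pooled per group and measured on 1 array per pool. The infusate and the access to food differed together between the pools, so their contributions cannot be told apart. Neither the labels nor the design text states the sex of the animals, and spread between mice was lost by the pooling, so no difference here has a replicate check.

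Levels are RMA values on the log2 scale, 1 per probe set and array, and ran from 1.32 to 12.5 in the table. Each difference is the PN level minus the saline level, and a fold is 2 raised to its size. The submitters kept rows that differed by at least 1.5-fold (0.585 on the log2 scale), so a gene with no named row has no value here and is not thereby unchanged. Hepatocyte identity could not be checked in the pools, since none of the 10 hepatocyte markers listed had a row. In bulk RNA fewer cells of a type and less RNA per cell cannot be told apart.

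Some close paralogs of the members had differences of the opposite sign, and the sequences just before their transcription starts show how alike some of them are. All 7 members matched RefSeq promoter entries of build GRCm38.p6, and the 250 bases before the annotated start are used below, read 5′ to 3′ on the + strand. The first pair is the member Cyp2a5 (chr7:26835089-26835338), which was lower in the PN pool, and its paralog Cyp2a4 (chr7:26306942-26307191), which was higher. Capitals mark the bases that differ between the aligned windows.

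Cyp2a5: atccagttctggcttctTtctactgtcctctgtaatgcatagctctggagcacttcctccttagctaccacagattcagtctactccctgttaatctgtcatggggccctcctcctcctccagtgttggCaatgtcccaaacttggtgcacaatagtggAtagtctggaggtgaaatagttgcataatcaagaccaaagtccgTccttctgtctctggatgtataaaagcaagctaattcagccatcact
Cyp2a4: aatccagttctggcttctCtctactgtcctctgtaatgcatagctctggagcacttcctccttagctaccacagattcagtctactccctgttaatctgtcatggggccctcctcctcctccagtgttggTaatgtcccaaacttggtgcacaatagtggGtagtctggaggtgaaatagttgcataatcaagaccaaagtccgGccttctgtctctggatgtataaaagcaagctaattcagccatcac

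The windows of Cyp2a5 and Cyp2a4 shared 245 of 249 aligned bases (98.4%) with no gap. The 4 substitutions, with the Cyp2a5 base first and positions counted from 1 at the 5′ end of its window, were T18C, C130T, A160G and T204G. The second pair is the member Cyp2b10 (chr7:25897408-25897657), lower in the PN pool, and Cyp2b9 (chr7:26173159-26173408), higher in it. Capitals again mark bases that differ or that face a gap in the other window.

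Cyp2b10: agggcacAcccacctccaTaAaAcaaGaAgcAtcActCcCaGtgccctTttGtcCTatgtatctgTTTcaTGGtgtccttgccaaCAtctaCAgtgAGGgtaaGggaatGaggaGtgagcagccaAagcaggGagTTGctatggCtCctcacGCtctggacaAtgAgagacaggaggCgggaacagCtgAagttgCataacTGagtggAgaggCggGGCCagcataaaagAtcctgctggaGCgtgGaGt
Cyp2b9: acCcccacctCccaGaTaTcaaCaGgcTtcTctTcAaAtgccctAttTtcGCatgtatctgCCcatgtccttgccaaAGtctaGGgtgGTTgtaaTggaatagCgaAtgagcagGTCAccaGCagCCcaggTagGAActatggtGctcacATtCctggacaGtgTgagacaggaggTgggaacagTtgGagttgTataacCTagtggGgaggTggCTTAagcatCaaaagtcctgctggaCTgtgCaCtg

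Cyp2b10 and Cyp2b9 were identical at 186 of 256 aligned positions (72.7%), with 52 mismatches and 18 gap positions. The window of Cyp2b13, the third Cyp2b gene with a row, differed from that of Cyp2b9 at 2 of 250 bases, and both of these genes were higher in the PN pool. The only carboxylesterase pair aligned, Ces2a and Ces2g, was less alike. These windows shared 146 of 254 aligned positions (57.5%), with 51 mismatches and 57 gap positions. The window of Ces2a (chr8:104733753-104734002) is given with the hexamer AGGTCA, the half-site that CAR, PXR and many other nuclear receptors recognize, in capitals.

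Ces2a: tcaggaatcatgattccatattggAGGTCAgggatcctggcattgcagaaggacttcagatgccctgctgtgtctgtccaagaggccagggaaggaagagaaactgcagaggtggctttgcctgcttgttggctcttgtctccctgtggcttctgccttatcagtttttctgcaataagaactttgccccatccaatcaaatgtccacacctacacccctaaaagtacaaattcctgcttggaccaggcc

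AGGTCA, searched on both strands, was found in 1 of the 7 member windows, that of Ces2a, and in 14.0% of the 32851 promoter windows in the RefSeq table. Among the paralogs, Cyp2b9 and Cyp2b13 held it and Cyp2a4 did not. The variant hexamer AGTTCA was in none of the 7 member windows and in 11.8% of all windows. A direct repeat of either hexamer with 4 bases between the copies, an arrangement bound by CAR, was in none of the 7 and in 0.0244% of all. A match this rare would hardly ever occur in 7 windows, so its absence says nothing about CAR at any member. The phenobarbital-responsive enhancer known for Cyp2b10 lies far upstream of these windows, so the absence of a match says nothing about CAR at this gene. TATAAA, the core of the TATA box, was in the windows of Cyp2a5, Cyp2c55 and Ces3b, against 12.4% of all windows. TTGCATA, a motif chosen after the sequences were seen, was in those of Cyp2b10, Cyp2a5 and the paralog Cyp2a4, against 2.37% of all.

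All 7 genes were lower in the PN pool when the rows of a gene were averaged, and 7 of the 8 rows were lower. For comparison, 52.7% of all rows and 49.8% of the named genes were lower in the PN pool. The median difference over the 7 genes was -0.90 on the log2 scale (1.86-fold lower). It was -0.60 over all rows and 0.59 over the named genes. No row differs by less than 0.585 in either direction, and the named genes split into 878 higher and 872 lower. The medians over all rows and over the named genes therefore sit at the edges of the gap left by the cutoff. Their sign shows only which side holds slightly more, and they are not typical changes. Because the members were picked from this contrast, nothing is read from these shares and medians. A difference of at least 2-fold in the lower direction was found for 7.31% of named genes, and among the member genes Cyp2b10 and Cyp2a5 reached it, as did 1 of the 2 rows of Cyp2c55.

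Cyp2b10, a monooxygenase of many drugs and steroids, had a level of 6.71 in the saline pool against 3.96 in the PN pool. The PN level was thus 6.72-fold lower, at 14.9% of the saline level, and only 1 of the 1750 named genes had a more negative difference. A level of 3.96 is close to the floor of the array. Chemosensory receptor genes serve here as a guide to background, and their median higher level was 3.26. Of the 133 such genes in the table, 24.1% had a higher level at or above 3.96. None of the 133 differed between the pools by as much as Cyp2b10 did. Most of them are too dim to differ that far above the lowest level of 1.32, so this count is not an error estimate.

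Cyp2a5, which hydroxylates coumarin and oxidizes nicotine, had a level of 6.06 in the saline pool against 4.13 in the PN pool. It was 3.81-fold lower, at 26.3% of the saline level, which made it the ninth lowest named gene. Its PN level also lay in the range of the receptor genes, 15.8% of which had a higher level at or above it. None of the 133 receptor genes differed by as much as Cyp2a5 either, but their dim levels limit how far they can differ.

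Cyp2c55, an enzyme that oxidizes arachidonic and linoleic acid, was represented by probe sets 17359239 and 17364390, and they disagreed. The first had 6.62 in the saline pool against 4.52 in the PN pool, a difference of -2.10 (4.28-fold lower). Its PN level lay in the range of the receptor genes, 11.3% of which had a higher level at or above it. The second had 5.59 and 6.28, a difference of 0.68 (1.61-fold higher). The platform annotation gives both rows the single symbol Cyp2c55, and what separates them was not tested. A statement on Cyp2c55 as a whole therefore depends on the row: the mean of both is -0.71. None of the 133 receptor genes differed by as much as the first row, but 84 of them differed by as much as the second. Their dim levels limit how far they can differ, so these counts are not an error estimate.

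The carboxylesterase genes had smaller differences than the single-row P450 members and levels well above background in both pools. Ces3b had 9.47 in the saline pool against 8.54 in the PN pool, a difference of -0.93 (1.90-fold lower). Ces2g had 7.17 and 6.28, a difference of -0.90 (1.86-fold lower). Ces1e, also known as egasyn for its retention of beta-glucuronidase in the endoplasmic reticulum, had 9.36 and 8.72, a difference of -0.64 (1.56-fold lower). All of these were lower in the PN pool, and they retained from 52.6% to 64.1% of their saline levels.

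Ces2a, which belongs with Ces2g to the subfamily of esterases that act on small acyl groups with large alcohol groups, had 9.68 in the saline pool against 9.09 in the PN pool. Its difference of -0.59 (1.51-fold lower) lies just inside the 1.5-fold cutoff of the deposited table, and no row outside the cutoff is available to set beside it. The median over the 4 carboxylesterase genes was -0.77 (1.70-fold lower). As a guide to size, 19 of the 133 receptor genes differed in either direction by as much as Ces3b or Ces2g, 100 by as much as Ces1e and 127 by as much as Ces2a. Receptor genes are dim and the carboxylesterases bright, so these counts describe the table and are not an error estimate.

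**Figure D1:**
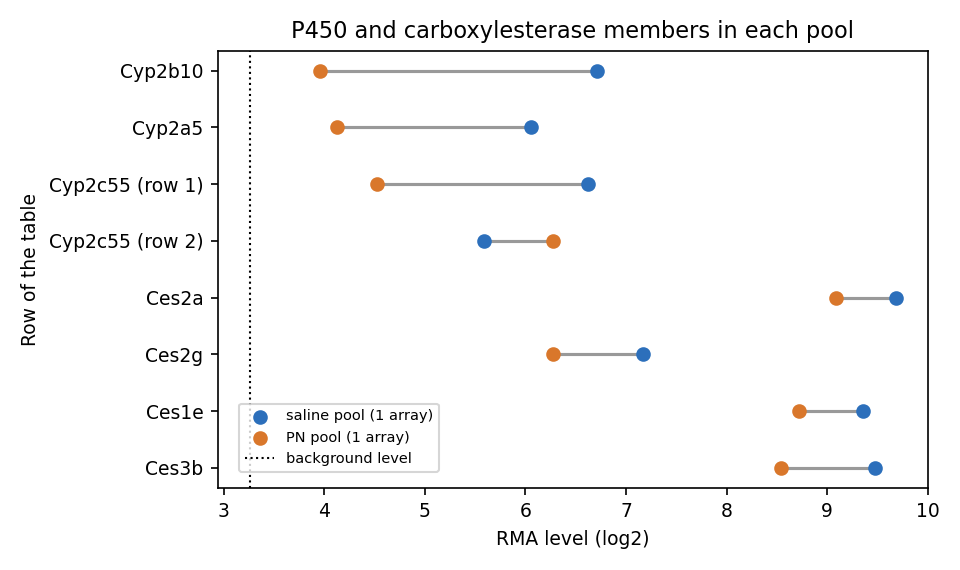
RMA level (log2) of each row of the 7 genes in both pools, saline and PN, 1 array each, joined by a line, with the background level of 3.26 dotted. The PN point lies to the left of the saline point in 7 of 8 rows, the second row of Cyp2c55 is the exception, and the PN levels of Cyp2b10 and Cyp2a5 come closest to the background level.

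The Cyp2a and Cyp2b paralogs of the members that had a row went the other way. Cyp2b9, a P450 with female-predominant expression in mouse liver, had 6.34 in the saline pool against 9.57 in the PN pool, so its difference of 3.23 lay 5.98 above that of Cyp2b10. Cyp2b13, another female-predominant P450, had 2.95 and 4.53. The saline level lies under the background level, and with that level as a floor the PN level was 2.41-fold higher. Because the background level is a median over receptor genes, this fold is not a strict bound. Both Cyp2b paralogs with a row were thus higher while Cyp2b10 was lower. The promoter windows of Cyp2b9 and Cyp2b13 are nearly the same, and how far the row of each measured the other gene was not tested. Their shared direction is therefore not counted as separate observations.

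In the Cyp2a subfamily, Cyp2a4, a female-predominant steroid hydroxylase, had 7.02 in the saline pool against 7.71 in the PN pool (1.62-fold higher). Cyp2a22 had 5.83 and 6.49 (1.58-fold higher). Cyp2a5 therefore stood 2.63 below Cyp2a4 and 2.59 below Cyp2a22 in its difference, although its promoter window is nearly that of Cyp2a4. Probe sets of such close copies can share target sequence and their values are uncertain, and how far the rows of Cyp2a5 and Cyp2a4 measured the other copy was not tested.

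These genes lie in 1 cluster on mouse chromosome 7, where the RefSeq table lists 13 protein-coding genes of the Cyp2a, Cyp2b, Cyp2f, Cyp2g, Cyp2s and Cyp2t subfamilies. Of these, 7 had a named row, with 4 higher and 3 lower in the PN pool. In genomic order Cyp2b10 was lower, Cyp2b13, Cyp2b9 and Cyp2a4 were higher, Cyp2a5 was lower, Cyp2a22 was higher and Cyp2f2 was lower, so the direction changed 4 times along the cluster. Cyp2f2, a P450 of periportal hepatocytes and airway club cells, is named here after its values were seen. Its rows had 11.1 and 7.76 in the saline pool against 9.86 and 6.41 in the PN pool, differences of -1.25 and -1.35.

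On chromosome 19, 2 of 15 coding Cyp2c genes had a named row. Beside Cyp2c55 this was Cyp2c40, which had 5.06 in the saline pool against 5.80 in the PN pool (1.68-fold higher). The other 13, Cyp2c29 and Cyp2c37 among them, had no value. The carboxylesterase genes all lie on chromosome 8, and 4 of the 19 coding genes had a row, all of them the members described above and all lower. No value was available for the other 15, including Ces1d, which hydrolyses stored triglyceride. None of the 9 Cyp3a genes listed, typical targets of PXR, had a value either.

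**Figure D2:**
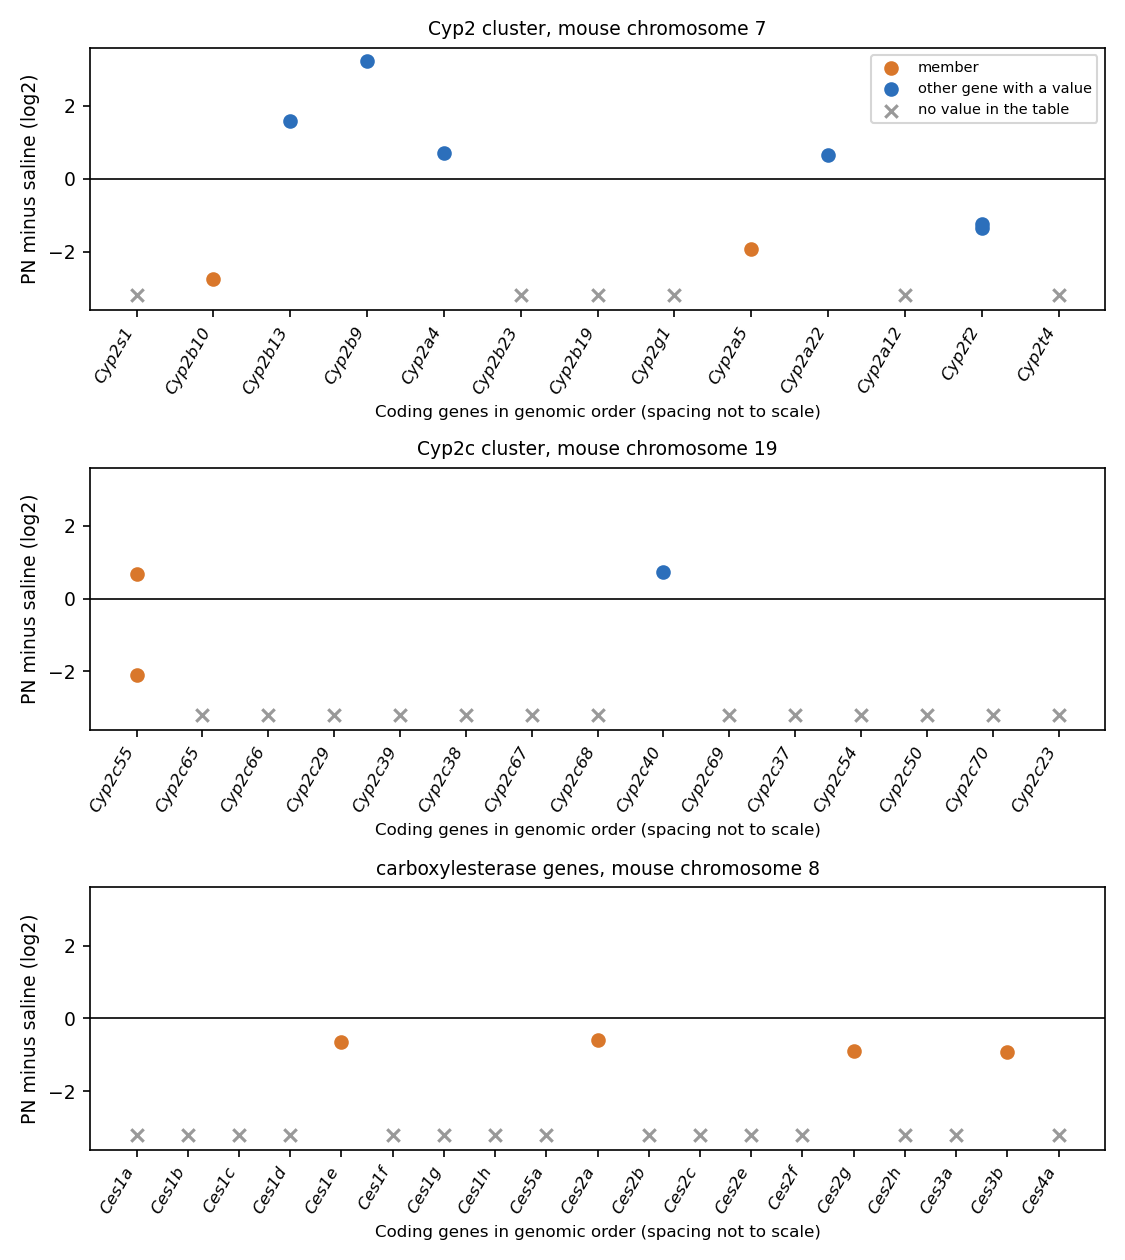
PN minus saline difference (log2, 1 array per pool) of coding Cyp2, Cyp2c and carboxylesterase genes placed in genomic order, with spacing not to scale; each dot is a row, members are orange, and crosses along the bottom mark genes without a value. Orange dots of the Cyp2 cluster at -2.75 and -1.93 alternate with Cyp2a and Cyp2b paralogs between 0.66 and 3.23, the 2 rows of Cyp2f2 lie at -1.25 and -1.35, and the carboxylesterase dots all lie between -0.93 and -0.59.

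Among the 875 named genes whose higher level reached the median of 5.18, the genes nearest in difference to each reference member were taken by the smallest gap, a likeness in 1 number only. Nearest to Cyp2b10 were Orm3, with 6.77 in the saline pool against 4.05 in the PN pool, Clec2h, with 7.39 and 4.78, and Orm2, with 8.79 and 6.18. Orm2 and Orm3 encode orosomucoid plasma proteins, and Clec2h a C-type lectin. Only 1 gene lay within 0.1 of Cyp2b10. Nearest to Ces2a were Fpgs, folylpolyglutamate synthase, the predicted gene Gm11696 and Ormdl1, a regulator of sphingolipid synthesis, all at -0.59. As many as 150 other genes lay within 0.1 of Ces2a, so its closeness to these 3 describes the crowding of the table near the cutoff.

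**Figure D3:**
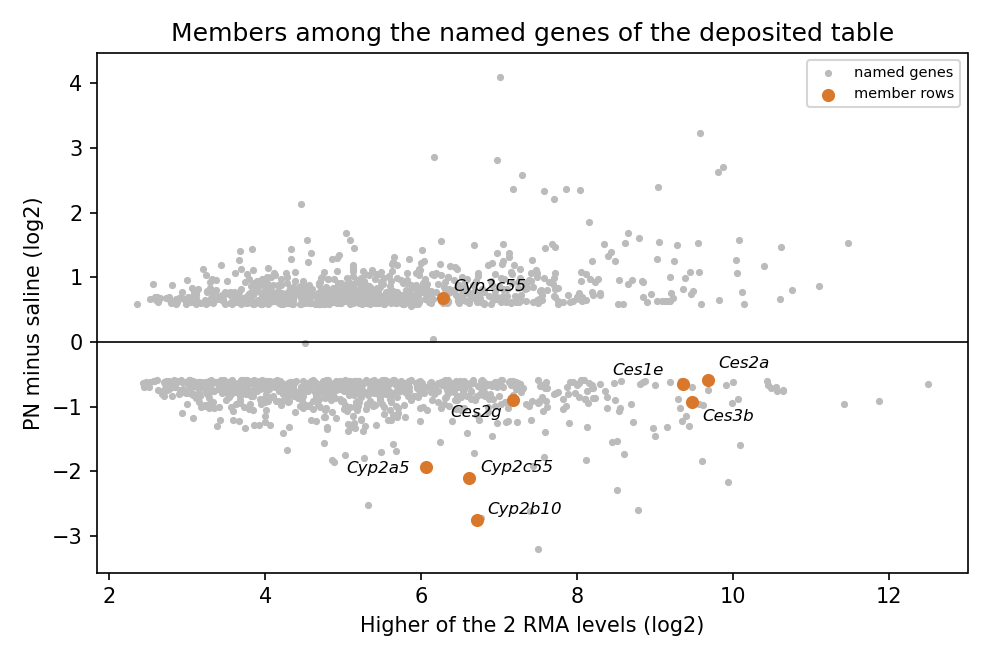
Difference (PN minus saline, log2) against the higher of the 2 levels (log2) for the 1750 named genes in grey, each the mean of its rows, with the 8 member rows in orange. Cyp2b10, Cyp2a5 and the first row of Cyp2c55 lie at the lower edge of the cloud, while Ces2a and Ces1e lie beside the empty band left by the 1.5-fold cutoff.

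Other genes described as targets of CAR or PXR were divided. Of 40 listed, 10 had a value, of which 5 were higher and 5 lower. Their median of 0.02 is only the midpoint between Abcc3 at -0.66 and Cyp2a4 at 0.70, across the gap left by the cutoff. It does not mean that these genes were unchanged, since each differed by at least 1.5-fold. Enzymes and transporters outside the Cyp2 cluster made up the lower ones: Gstm3 and Gstm1, glutathione transferases, were 2.51-fold and 1.63-fold lower, and Ephx1, microsomal epoxide hydrolase, was 1.84-fold lower. Ugt2b35, a glucuronosyltransferase, was 1.78-fold lower and Abcc3, an exporter of conjugates, 1.59-fold lower. Besides the 3 Cyp2 paralogs, the higher genes were Slco1a4, an uptake transporter, which had 7.75 in the saline pool against 8.65 in the PN pool, and Alas1. Alas1, the rate-limiting enzyme of heme synthesis, had 8.49 and 9.56 (2.11-fold higher).

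Of 15 genes for P450 electron supply and heme turnover, Alas1 and Hmox1 had a value. Hmox1, heme oxygenase, had 7.10 in the saline pool against 8.05 in the PN pool (1.92-fold higher). Por and the other 12 had none.

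Neither Nr1i3 nor Nr1i2 had a value, so the expression of both receptors is not described here. Among 26 receptors, partners and modifiers listed, 3 had a value. Ppargc1a, a coactivator of hepatic nuclear receptors, had 6.94 in the saline pool against 8.19 in the PN pool (2.38-fold higher). Nr0b2, the corepressor SHP, had 8.49 and 7.60 (1.85-fold lower), and Foxa2, a liver transcription factor, had 6.45 and 5.85 (1.51-fold lower).

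Few conjugating enzymes, or ester hydrolases outside the carboxylesterase family, had a value. Of 22 Ugt family genes listed, not all of them glucuronosyltransferases, 5 had a value. Of these, 4 were lower and 1 was higher, and the median was -0.83. Ugt3a1 had 7.23 in the saline pool against 5.99 in the PN pool (2.36-fold lower), and Ugt2b1 had 10.5 and 9.85 (1.62-fold lower). Ugt2b38 had 3.59 and 2.52, the latter under the background level, and with that level as a floor it was 1.25-fold lower. Its saline level also lies close to the background level, so its direction is uncertain. The exception, Ugt8a, which acts on ceramide, had 4.42 and 5.22 (1.74-fold higher). Ester hydrolases outside the carboxylesterase family were higher where they had a value, which 3 of 21 did: Lpl at 1.76-fold, Pnpla3 at 1.63-fold and Lipg at 1.57-fold.

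**Figure D4:**
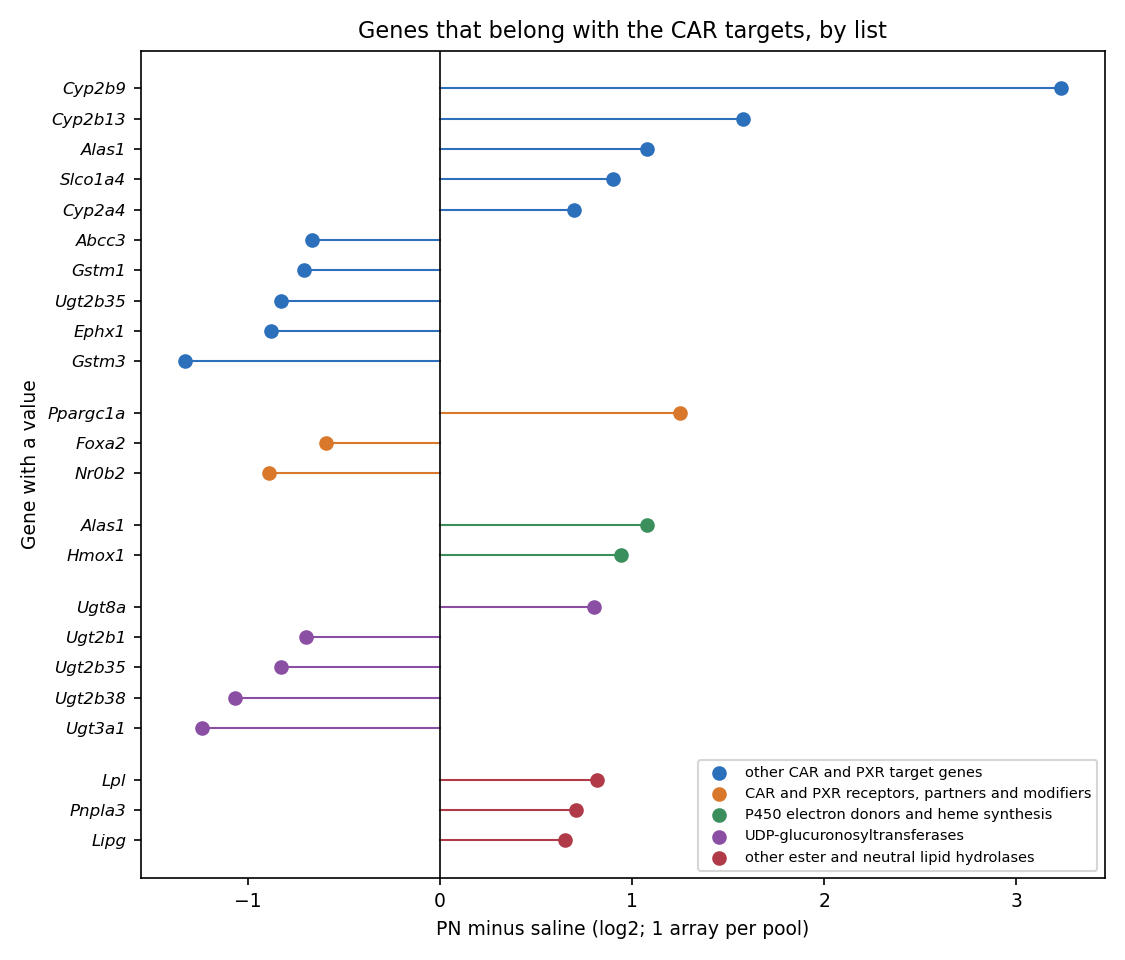
PN minus saline difference (log2, 1 array per pool) of every gene with a value in 5 lists related to the members, which are left out; Alas1 and Ugt2b35 appear in 2 lists each. Other CAR and PXR targets lie on both sides of 0, from -1.33 for Gstm3 to 3.23 for Cyp2b9. Of the 5 Ugt family genes, labelled UDP-glucuronosyltransferases, 4 lie below 0.

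Many CAR targets are expressed around the central vein of the liver lobule. Of 26 pericentral genes other than the member Cyp2a5, 4 had a value: Cyp7a1, the rate-limiting enzyme of bile acid synthesis, was 2.41-fold higher, Ahr 1.62-fold and the stem cell receptor gene Lgr5 1.57-fold higher, and Gstm3 was lower as given above. Markers of other cells also differed between the pools. Of 15 macrophage and Kupffer cell markers 7 had a value. Each of the 7 had a higher level after PN, and their summed level was 10.3 in the saline pool against 11.1 in the PN pool on the log2 scale. The largest difference among the 7 was that of Marco, 5.15-fold higher. The smallest was that of Clec4f, which marks Kupffer cells, 1.53-fold higher. Lymphocyte markers with a value, 4 of 11, were all higher, with summed levels of 6.92 and 7.80. Neither the endothelial list nor the hepatocyte list had a marker with a value. The other lists gave few values, which came from the stellate cell list (1 of 9, higher), cholangiocytes (3 of 8, with 1 higher), erythroid cells (2 of 7, both lower), intestinal epithelium (4 of 8, with 3 higher) and exocrine pancreas (2 of 7, both lower). The part of cell composition in the lower levels of the 7 genes was not tested.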

How the data were processed

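Per the submitters' processing notes, the authors computed RMA values (background correction, normalization between arrays, and summary per probe set) with Affymetrix Expression Console 1.4.0.38; the deposited log2 values are used as given. Genome build, annotation version and which arrays were normalized as one set were not given in these sources. Total RNA was labelled with biotin as cDNA.

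The platform annotation gave 1 symbol for 1779 rows, several for 161 and no symbol for 3142; no row with several symbols held a member. Symbols were updated by Entrez identifier through the RefSeq table (GRCm38.p6), and rows were averaged per gene. Levels under the background level of 3.26, the median over chemosensory receptor genes, were raised to it only for the folds of Cyp2b13 and Ugt2b38 and in 1 alternative. With 1 array per group no p-value was computed and the number of arrays limits the precision. The members, lists and tests were chosen with earlier results of these data known. The genes named are the members, the listed genes with a row, and those nearest in difference. Promoter windows were aligned globally (Biopython 1.88; match 1, mismatch -1, gap opening -2, extension -0.5, end gaps free). The averaging and alignment steps were tested on simulated data. The effect of 8 alternatives is given at the end. Tables were handled with pandas 2.3.3 and numpy 2.4.6.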

Additional observations from a re-analysis of the deposited data

How the results depend on the processing

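The 6 members other than Cyp2c55 kept their direction under each of the 8 alternatives that left them a value. With 1 row each and no level under the background level, their values could change only through the centrings. Centring shifted every difference by the same amount, 0.0194 or -0.0681, too little to reverse any of these genes. Their kept direction is therefore not evidence of robustness. The largest shift among their 44 alternative values was 0.0681 on the log2 scale. That shift came from centring each array on rows with 1 symbol. Values that moved by less than 0.1 were counted as unmoved, since no replicate spread exists. For Cyp2c55 the difference was 0.68 with the row of higher mean level, which reverses it, and -2.10 with the row of lower mean level or with rows of at least 2-fold. The count of members lower was 7, 6 with the Cyp2c55 row of higher mean level, and 3 with rows of at least 2-fold, where the 4 carboxylesterases have no value and the median was -2.10. No paired analysis was possible because each group has 1 array. Leaving out a replicate was likewise not possible. The precision of dim levels, such as those of Cyp2b10, Cyp2a5 and the first row of Cyp2c55 in the PN pool, is limited by their closeness to background.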
